A study of Mus musculus with 9 samples.

Results

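The genes described here are the chain named in the study's title, from the interleukin-17 receptor through ACT1 and TRAF6 to NF-kB. The 10 members were chosen by name: the receptor subunit genes Il17ra, Il17rc and Il17rb, the ACT1 gene Traf3ip2, Traf6, the kinase genes Map3k7 and Ikbkb, the TAK1 partner gene Tab2, and the NF-kB subunit genes Nfkb1 and Rela. All 10 stood in the deposited table of 57010 genes, and all 10 were among the 13686 genes that passed the filter on low counts. RNA of liver from male BALB/c mice was sequenced in 9 libraries, 3 in each of the groups CON, CPT and AT3. CON livers were untreated. CPT and AT3 livers carry one and the same treatment label, cisplatin-induced acute injury of the liver. Cisplatin, DDP in the series' design text, is a platinum compound that forms crosslinks in DNA. What AT3 stands for is not spelled out in the labels. Atractylenolide III, a plant sesquiterpene lactone, appears in the title of the series. The sources used here give no dose, route, time or age. Nor do the labels say whether the libraries of a group come from separate animals, so p-values measure spread among libraries that may be partly technical.

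In the textbook account, IL-17A and IL-17F bind a receptor of the IL-17RA and IL-17RC subunits, and IL-25 binds one of IL-17RA and IL-17RB. The receptor tails and ACT1 meet through a shared SEFIR domain. ACT1 then recruits TRAF6, a ubiquitin ligase whose chains bring together TAB2 with the kinase TAK1 (gene Map3k7) and the IKK complex with IKK-beta (gene Ikbkb). IKK phosphorylates the inhibitor that holds NF-kB dimers, such as p50 (from Nfkb1) with RELA, in the cytoplasm. These steps run on binding, ubiquitin and phosphate, none of which an RNA level measures. In liver, hepatocytes as well as non-parenchymal cells respond to IL-17.

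Depth was 21485021 to 28480479 estimated counts a library, so that 3 counts correspond to 0.0934 to 0.169 CPM, the count relative to the TMM-scaled library size. Mitochondrially encoded transcripts took 25.8% to 36.8% of counts in the CON libraries, whereas CPT libraries had 11.2% to 16.3% and AT3 libraries 9.80% to 11.4%. The choice of scaling bears on every comparison with CON: the median of all tested genes moved by -0.02 (log2) in CPT against CON with TMM and by 0.29 on the log2(TPM + 1) scale. For AT3 against CON these medians were -0.04 and 0.32. Of the genes called in CPT against CON, 49.3% were higher with TMM and 80.5% on the log2(TPM + 1) scale. Hepatocyte markers, which check the labelled tissue, summed to 69700 to 74000 CPM in CON, 48800 to 66300 CPM in CPT and 77900 to 83900 CPM in AT3 libraries. Most of each sum was Alb, with means of 38600, 37200 and 53900 CPM in the same order. All 7 hepatocyte markers in the table were tested. In CPT against CON 1 rose and 3 fell, where 60.8% of all tested genes were called. In AT3 against CPT 3 rose (Alb, Serpina1a and Cps1) and 0 fell, where 4.68% were called.

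Promoter sequences of 2 receptor genes, and of Traf6 and Map3k7 downstream of them, show what the start regions hold. They come from RefSeq (GRCm38.p6), run from 250 bases before to 50 bases after the annotated start, are written 5′ to 3′ on the gene's strand, and were found for 6 of the 10 members, not for Il17ra, Traf3ip2, Ikbkb and Nfkb1. Capitals mark matches, on either strand, to the kB motif, to TTCNNNGAA (STAT), to TGANTCA (AP-1) or to TTNNGNAA (C/EBP).
Il17rb, chr14:30008847-30009146, minus strand: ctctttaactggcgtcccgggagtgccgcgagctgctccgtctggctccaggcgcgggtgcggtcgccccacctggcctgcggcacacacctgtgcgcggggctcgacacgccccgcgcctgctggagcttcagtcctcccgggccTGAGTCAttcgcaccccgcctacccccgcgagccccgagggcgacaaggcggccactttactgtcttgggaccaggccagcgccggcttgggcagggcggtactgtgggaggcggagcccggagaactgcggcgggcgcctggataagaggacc
Il17rc, chr6:113471205-113471504, plus strand: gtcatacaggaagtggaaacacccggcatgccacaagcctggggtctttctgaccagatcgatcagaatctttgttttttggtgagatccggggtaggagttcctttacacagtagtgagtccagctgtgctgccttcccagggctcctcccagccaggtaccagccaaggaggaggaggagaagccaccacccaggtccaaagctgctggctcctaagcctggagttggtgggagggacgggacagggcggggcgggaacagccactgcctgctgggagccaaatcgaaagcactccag
Traf6, chr2:101678170-101678469, plus strand: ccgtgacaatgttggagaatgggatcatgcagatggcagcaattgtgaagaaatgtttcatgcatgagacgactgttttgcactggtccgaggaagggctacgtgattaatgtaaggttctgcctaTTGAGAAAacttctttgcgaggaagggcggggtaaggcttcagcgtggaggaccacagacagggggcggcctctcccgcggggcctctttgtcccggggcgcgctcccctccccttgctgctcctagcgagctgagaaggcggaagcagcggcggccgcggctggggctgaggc
Map3k7, chr4:31963857-31964156, plus strand: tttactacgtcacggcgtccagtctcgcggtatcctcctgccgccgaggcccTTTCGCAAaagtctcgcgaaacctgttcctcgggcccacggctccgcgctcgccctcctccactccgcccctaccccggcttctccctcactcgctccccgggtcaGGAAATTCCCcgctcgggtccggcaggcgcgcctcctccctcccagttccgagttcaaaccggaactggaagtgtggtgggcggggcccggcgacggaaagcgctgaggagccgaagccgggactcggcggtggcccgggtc
The Il17rb window held 1 AP-1 match at position -104 from the start, and the Il17rc window held 0 matches to any of the 4 motifs. The kB match, at position -92, lay in Map3k7, which also held 1 C/EBP match, as did Traf6. The windows of Rela and Tab2 held 0 matches to the 4 motifs. Among 32851 mouse promoter windows of the same length, 8.46% held the kB motif, 8.30% the STAT motif, 7.81% the AP-1 motif and 40.7% the C/EBP motif. No match overlapped another in the windows printed, and a match is a string of letters, not a measured site.

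The first comparison, CPT with CON, addresses what cisplatin-injured livers show against untreated ones. All 3 receptor genes rose, Il17ra and Il17rb by over 3-fold, while of the 7 intracellular genes Traf6 and Tab2 fell and 5 did not pass the test. On both TPM scales 6 members were called higher (the receptor genes, Map3k7, Ikbkb and Rela) and 0 lower, so the 2 falls depend on the scaling. Of all 13686 tested genes, 6631 were called higher and 1604 lower on the log2(TPM + 1) scale. Of the 10 members, 5 were called at edgeR adjusted p under 0.05, where 60.8% of all tested genes were called (30.0% higher and 30.8% lower). The share of members called was thus not above the background. The libraries of CON and CPT did not overlap for 5 of the 10 members, against 64.2% of all tested genes. The members' median log2 fold change was 0.20, beside -0.02 over all 13686 genes.

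**Figure D1:**
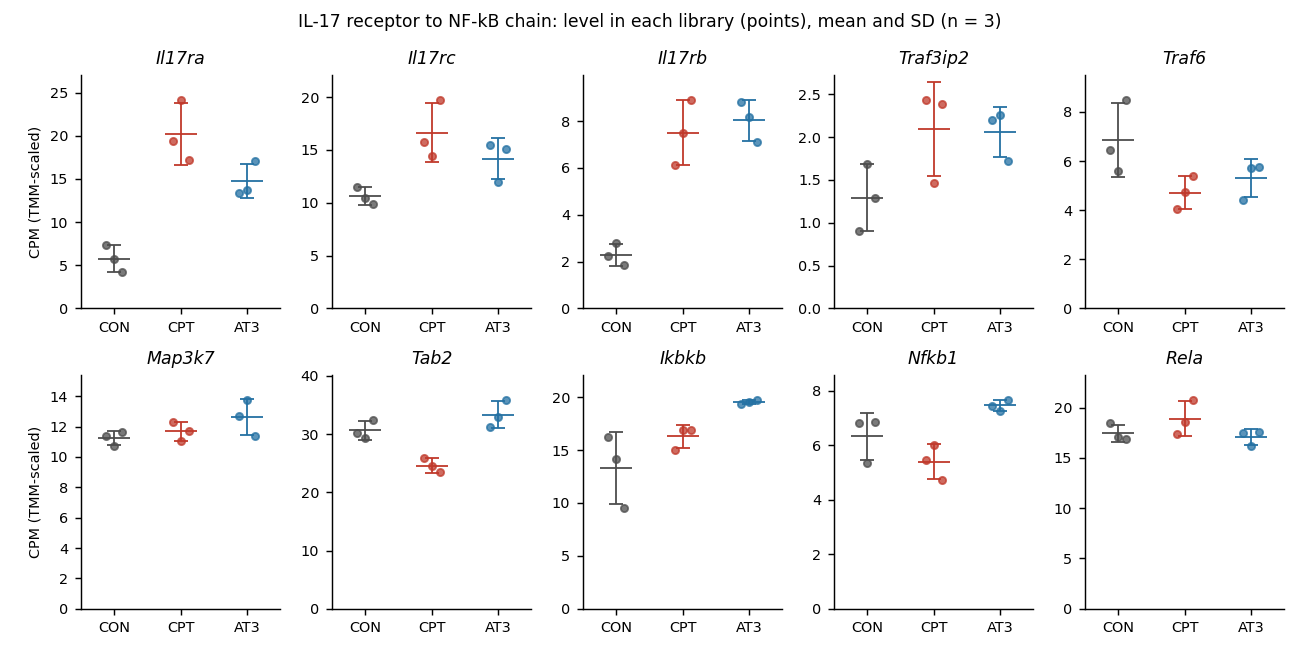
Level of each of the 10 genes in TMM-scaled CPM (vertical axes from 0, a scale per panel) in the CON, CPT and AT3 libraries. Points are libraries, bars the mean and SD (n = 3). The 3 receptor genes stand lowest in CON, while Tab2 stands lowest in CPT.

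Il17ra encodes the signalling subunit shared by the receptors of several IL-17 family cytokines. It measured 7.31, 5.77 and 4.28 CPM in CON_1 to CON_3 and 19.4, 24.2 and 17.15 CPM in CPT_1 to CPT_3, or 76.34 to 147 counts against 446 to 777. The lowest CPT library was above the highest CON library by more than the spread within either group. The fold change was 3.50 (log2 1.81 ± 0.17 (SE), edgeR adjusted p = 3.32e-07), larger than that of 95.2% of tested genes. The gene (ENSMUSG00000002897) lies on chromosome 6 from 120463247 to 120487559 in GRCm38.

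Il17rb encodes the subunit that pairs with IL-17RA to bind IL-25. Its levels were 2.25, 2.79 and 1.86 CPM in the CON libraries and 6.11, 7.50 and 8.92 CPM in the CPT libraries, again with no overlap. It rose 3.21-fold (log2 1.68 ± 0.19 (SE), edgeR adjusted p = 1.41e-06). The span of the oppositely transcribed Actr8 reaches an exon of Il17rb (ENSMUSG00000015966, chromosome 14, 29996135 to 30008896). Whether an Actr8 exon lies there was not examined. Without strand in the sources used here, reads of a stretch shared by exons of both genes could not be told apart. Actr8 had 179 to 268 counts in the CON libraries, against 424 to 546 for CPT and 473 to 532 for AT3, and its part in the Il17rb values was not tested.

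Il17rc encodes the subunit that completes the receptor for IL-17A and IL-17F. It measured 11.5, 10.5 and 9.85 CPM in CON and 15.7, 14.45 and 19.8 CPM in CPT. All CPT libraries were above all CON libraries, by less than for the other receptor genes: the rise was 1.57-fold (log2 0.65 ± 0.14 (SE), edgeR adjusted p = 0.000797). Il17rc (ENSMUSG00000030281) lies on chromosome 6 from 113471427 to 113483140. The calls of all 3 receptor genes held under every alternative run, with log2 fold changes of 1.55 to 2.42 for Il17ra, 1.46 to 2.20 for Il17rb and 0.52 to 1.27 for Il17rc.

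The balance between the 2 subunits of the IL-17A receptor was lower on the Il17rc side in CPT, in a design too small to pass a test at 0.05. Per length, on the TPM scale, Il17rc exceeded Il17ra 5.82-, 5.39- and 9.11-fold in CON_1 to CON_3, and 2.82-, 1.93- and 3.33-fold in CPT_1 to CPT_3. The log2 ratio was 2.72 ± 0.41 (SD, n = 3) in CON and 1.39 ± 0.40 in CPT, a difference of -1.33 with no overlap (two-sided exact permutation p = 0.1, the smallest that 3 against 3 libraries allow). A ratio within a library does not depend on how the libraries are scaled.

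Traf3ip2 encodes ACT1, the adaptor between receptor and TRAF6. It was the least abundant member in counts, with 16 to 42.66 estimated counts in the CON libraries, 47.22 to 69.33 for CPT and 47.75 to 71.59 for AT3. In CPM it measured 0.899, 1.69 and 1.295 in CON and 2.44, 1.46 and 2.38 in CPT, so that CPT_2 lay below CON_2. The log2 fold change was 0.66 with a 95% interval of 0.04 to 1.29 and did not pass (edgeR adjusted p = 0.0622). Without CON_2 it was 0.93 (adjusted p = 0.0287), without CPT_2 0.88 (adjusted p = 0.0189) and with no filter on low counts 0.74 (adjusted p = 0.0274). Traf3ip2 (ENSMUSG00000019842, chromosome 10, 39612934 to 39655307) overlaps the antisense gene E130307A14Rik, listed at 11.82 to 44.1 counts. With the counts of that gene added to it, an alternative chosen after seeing the data, the log2 fold change was 0.25 ± 0.23 (SE, edgeR adjusted p = 0.377).

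Traf6 encodes the ubiquitin ligase recruited by ACT1. Its estimated counts were 115, 142 and 151 in CON and 114, 152 and 140 in CPT, while scaled levels were 6.46, 5.57 and 8.50 against 4.03, 4.73 and 5.38 CPM. On that scale Traf6 fell by 0.53 ± 0.18 (log2, SE; edgeR adjusted p = 0.0176), whereas on the log2(TPM + 1) scale it differed by 0.03 (limma adjusted p = 0.776). The call was also lost with DESeq2 (adjusted p = 0.0534), without CON_3 (0.117) and without CPT_1 (0.107). Traf6 (ENSMUSG00000027164) lies on chromosome 2 from 101678429 to 101701669.

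Map3k7 encodes the kinase TAK1 and Tab2 the subunit that tethers TAK1 to ubiquitin chains. Map3k7 measured 11.4, 10.7 and 11.65 CPM in CON and 12.3, 11.02 and 11.7 CPM in CPT, with overlapping groups. Its log2 fold change of 0.05 had a 95% interval of -0.18 to 0.29 (edgeR adjusted p = 0.681), whereas on the log2(TPM + 1) scale Map3k7 was 0.36 higher and passed (limma adjusted p = 0.0158), 0.07 above the median of all genes there. Tab2 measured 30.2, 29.2 and 32.4 CPM in CON and 25.9, 24.5 and 23.4 CPM in CPT, every CPT library being lower. It fell by 0.32 ± 0.09 (log2, SE; edgeR adjusted p = 0.00874), but on the log2(TPM + 1) scale its value was 0.24 in the other direction (limma adjusted p = 0.0846), 0.05 below the median of all genes there. With no filter on low counts the adjusted p was 0.134. In GRCm38, Map3k7 (ENSMUSG00000028284) lies on chromosome 4 from 31964097 to 32023467 and Tab2 (ENSMUSG00000015755) on chromosome 10 from 7905653 to 7956230.

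Ikbkb encodes IKK-beta, the kinase that marks the NF-kB inhibitor for degradation. It measured 16.2, 14.2 and 9.51 CPM in CON and 15.0, 16.9 and 16.9 CPM in CPT, the CON libraries spreading widely. The log2 fold change was 0.29 (95% interval -0.02 to 0.60, edgeR adjusted p = 0.0971). It passed with no filter (adjusted p = 0.0118), on the log2(TPM + 1) scale (0.0104), without CON_1 (0.0199) and without CPT_1 (0.0426). Ikbkb (ENSMUSG00000031537) lies on chromosome 8 from 22659212 to 22706589.

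Nfkb1 encodes p105, the precursor of the p50 subunit, and Rela the transactivating subunit. Nfkb1 measured 6.80, 5.34 and 6.87 CPM in CON and 5.44, 6.01 and 4.73 CPM in CPT. Its log2 fold change of -0.22 (95% interval -0.52 to 0.08, edgeR adjusted p = 0.195) was 0.23 on the log2(TPM + 1) scale and passed on neither. Rela measured 18.4, 17.1 and 16.8 CPM in CON and 17.4, 18.6 and 20.8 CPM in CPT, with a log2 fold change of 0.11 (95% interval -0.10 to 0.33, edgeR adjusted p = 0.337). On the log2(TPM + 1) scale Rela was 0.60 higher (limma adjusted p = 0.00331), 0.31 above the median of all genes on that scale. Nfkb1 (ENSMUSG00000028163) lies on chromosome 3 from 135584655 to 135691547 and Rela (ENSMUSG00000024927) on chromosome 19 from 5637483 to 5648130.

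**Figure D2:**
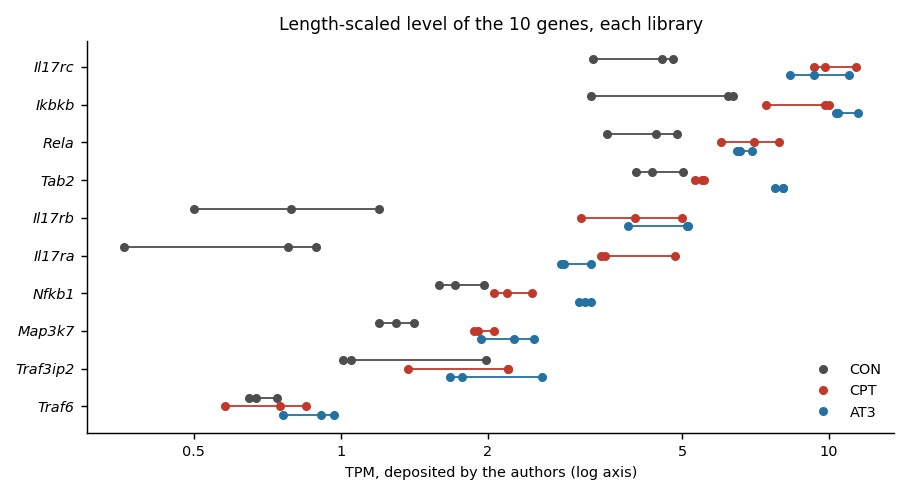
Deposited TPM (horizontal log axis) of the 10 genes, with a point per library and a line over the range of each group (n = 3). Il17ra was below 1 TPM in every CON library and at 2.82 TPM or more in every CPT and AT3 library, and Traf6 stayed below 1 TPM in all 9.

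Per length, the order of the members changed between the groups. In CON, on the deposited TPM scale, Ikbkb (5.27 ± 1.74 TPM, SD, n = 3), Tab2 (4.46 ± 0.505), Rela (4.27 ± 0.696) and Il17rc (4.21 ± 0.813) led, and each overlapped the next. A gap then parted Il17rc from Nfkb1 (1.75 ± 0.189 TPM), and from there down to Il17ra (0.677 ± 0.280 TPM), in last place, neighbours overlapped. In CPT, Il17rc led at 10.2 ± 1.06 TPM, overlapping Ikbkb at 9.07 ± 1.43 TPM, while Il17rb (4.04 ± 0.940 TPM) and Il17ra (3.91 ± 0.800 TPM) overlapped each other and stood above Nfkb1 (2.24 ± 0.204 TPM). Traf6 was last in CPT at 0.727 ± 0.137 TPM, apart from Traf3ip2 at 1.92 ± 0.479 TPM. In AT3, Ikbkb (10.7 ± 0.617 TPM) and Il17rc (9.52 ± 1.34 TPM) overlapped at the top, and Traf6 (0.880 ± 0.108 TPM) was last and apart from Traf3ip2 (2.01 ± 0.499 TPM).

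The ligands were near or at 0 in these livers. Il17a, Il17b and Il25 had 0 counts in all 9 libraries, which at 3 counts a library allows up to 0.169 CPM. Il17c reached 4 counts in 1 library, Il17d at most 3 counts and Il17f 1 count in 1 library. Of the other receptor subunit genes, Il17re was counted in all 9 libraries with at most 6.04 and Il17rd in 7 libraries with at most 4, and neither passed the filter. Il23r, which marks type 17 lymphocytes, had 0 counts in all libraries, and Cd3d, Cd3e and Cd3g had at most 6, 6 and 7.

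Markers of other liver cell types differed between the groups as well. The 10 neutrophil markers summed to 4.10 to 5.26 CPM in CON, against 24.1 to 50.2 for CPT libraries and 12.1 to 13.5 for AT3 libraries, with none at 0 in all libraries. Their largest means in CPT were those of S100a9 (15.2 CPM) and S100a8 (8.71 CPM). The 8 Kupffer cell and macrophage markers summed to 33.2 to 45.1 CPM in CON, against 15.3 to 18 for CPT libraries and 16.2 to 19 for AT3 libraries, with none at 0. Sinusoidal endothelial markers summed to 145 to 149 CPM in CON, against 26.1 to 34.8 for CPT libraries and 29.7 to 36.7 for AT3 libraries, and stellate cell markers to 366 to 432, 68.7 to 77.8 and 46.9 to 60.8 CPM in the same order. Cholangiocyte markers, with Cftr at 0, summed to 15.8 to 20.9, 17.4 to 22.1 and 21.7 to 25.4 CPM, most of which was Spp1 (means of 15.1, 16.9 and 21.5 CPM), singled out after its values were seen. In CPT against CON, 0 of the 5 tested cholangiocyte markers rose and 2 fell, with a median log2 fold change of -0.31. Of the neutrophil markers 4 of 5 tested rose, of the macrophage markers 1 of 8 rose and 5 fell, and 8 of 10 endothelial and 10 of 10 stellate cell markers fell. The background of these counts was 60.8% of tested genes called (30.0% higher and 30.8% lower). The untested neutrophil markers, Ly6g, Mpo, Elane, Camp and Ngp, had at most 7 counts in any library. Retnlg and Marco (0.109 and 0.101 CPM on average in CON) passed the filter only through injured livers, and Timd4 (0.195 CPM in CPT) only through CON. The direction of each was thus set by the filter. In bulk tissue, fewer cells of a type and less RNA per cell cannot be told apart, and the part of these shifts in the members' levels was not tested.

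The rest of the pathway was described from lists chosen by known role. Of 88 other genes of the chain and its branches, 70 were tested: 33 rose, 16 fell and 21 were not called in CPT against CON, where 60.8% of all tested genes were called (30.0% higher and 30.8% lower). Over these 70 genes the median was 0.40 (log2). The counts of the lists that follow stand against the same background. In the TRAF and ubiquitin list 5 of 12 rose and 4 fell, among the rises Ube2v1 (log2 1.83 ± 0.21 (SE), edgeR adjusted p = 1.91e-06), a cofactor of the enzyme that builds K63-linked ubiquitin chains, and the linear ubiquitin ligase subunit gene Rbck1 (log2 1.16 ± 0.10 (SE)). Among 9 partners of IKK and TAK1, Ikbke rose from 9.31 ± 1.79 to 29.8 ± 3.8 CPM (log2 1.68 ± 0.13 (SE), edgeR adjusted p = 3.49e-08), 3 fell and 5 were not called. Falls of the IKK subunit genes Ikbkg (-0.68 on the log2 scale) and Chuk (-0.36) were values of 0.23 and 0.17 on the log2(TPM + 1) scale, which did not pass there.

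Of 9 MAP kinase genes 4 rose and 3 fell, Mapk14 (p38 alpha) having the smallest p with a log2 fold change of 1.18. Of 8 NF-kB subunit and inhibitor genes tested, 3 rose and 1 fell. Nfkbiz, which encodes the IkB-zeta cofactor needed at many IL-17 target genes, was at 1.95 ± 0.15 (log2, SE), Nfkbib at 0.66 and Bcl3 at 0.61, while Nfkbia, the gene of the classical inhibitor, fell by 0.38 and was 0.22 higher on the log2(TPM + 1) scale without passing. Of 11 negative regulators 5 rose and 2 fell, with the RNase gene Zc3h12a at 1.49 and the deubiquitinase gene Usp25 at -0.77, which did not pass on the log2(TPM + 1) scale (-0.07, limma adjusted p = 0.539). Of 5 genes of the mRNA stability arm, 2 rose, among them Arid5a (log2 2.5), and 1 fell.

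All 7 tested C/EBP and AP-1 genes rose, with a median log2 fold change of 1.70, Junb being at 3.34. Of 9 tested genes of other receptors and adaptors that feed TRAF6 or NF-kB, 6 rose and 2 fell, with the IL-1 receptor gene Il1r1 at 2.24 and its partner Il1rap at -1.18. Of 18 genes known as IL-17 targets, 7 were tested and 6 rose, with a median of 4.48. The others, Il6, Csf3 and Cxcl2 among them, had at most 13 counts in any library and were under the filter. Mmp9 (0.0131 CPM on average in CON, 0.695 CPM in CPT) passed the filter only through injured livers, so it could only have shown a rise. Lcn2, which encodes the iron-siderophore binding protein lipocalin-2, had the largest rise of the list, from 4.86 ± 1.39 to 3750 ± 161 CPM (SD, n = 3; log2 9.61), with Steap4 at 5.03 and Cxcl1 at 4.48. Several of these genes also answer to IL-1, IL-6 and TNF, and S100a8 and S100a9 stand on the neutrophil list too. In the authors' deposited annotation, 93 genes carry the IL-17 signalling pathway map, the 10 members among them, and of its 55 tested genes 22 rose and 15 fell, with a median log2 fold change of 0.11.

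**Figure D3:**
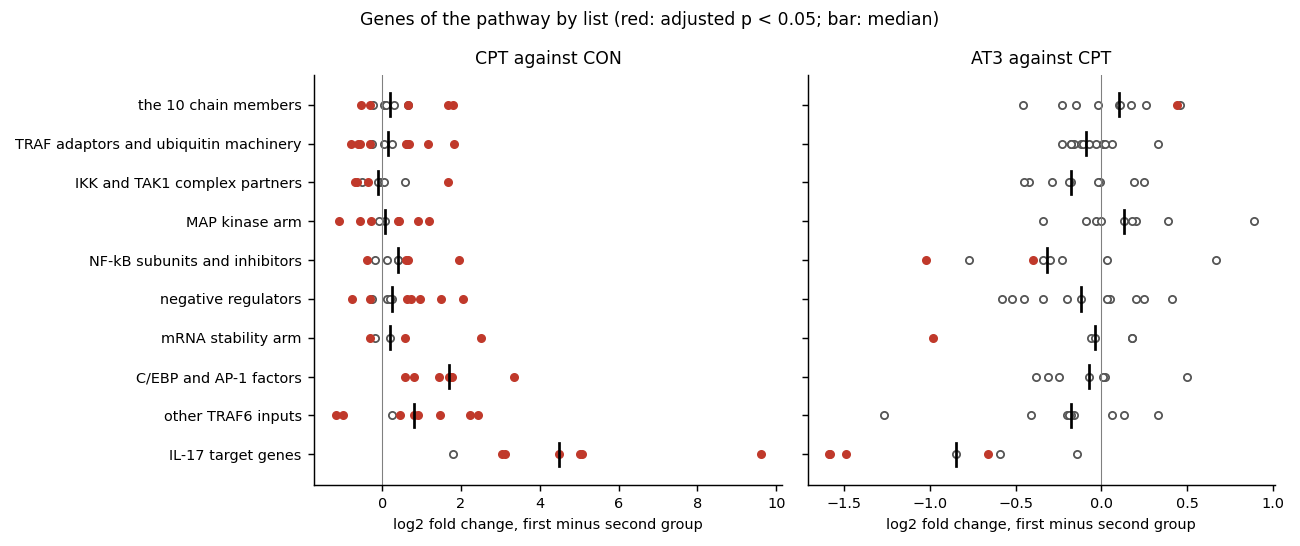
Log2 fold change (horizontal axis, first minus second group) of every tested gene of each pathway list, with the 10 chain members on top. Red points passed edgeR adjusted p under 0.05, open points did not, and bars are medians. In AT3 against CPT the red points are 1 chain member above 0 and, below 0, 2 NF-kB inhibitor family genes, 1 gene of the mRNA stability arm and 4 IL-17 target genes.

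The second comparison, AT3 with CPT, addresses whether the chain differed between the 2 groups of injured livers. Of the 10 members, Tab2 was called, as higher in AT3, and none was called lower. The background was 4.68% of tested genes called (2.46% higher and 2.22% lower). The libraries did not overlap for 4 members, against 27.0% of all genes: Il17ra, lower in AT3, and Tab2, Ikbkb and Nfkb1, higher in AT3. The members' median log2 fold change was 0.11, beside 0.00 over all genes.

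Tab2 measured 31.2, 32.8 and 35.9 CPM in AT3_1 to AT3_3, each above the highest CPT library at 25.9 CPM. The log2 fold change was 0.44 ± 0.09 (SE, edgeR adjusted p = 0.0157, and 0.00107 to 0.148 over the alternatives). The call was lost without CPT_2 (adjusted p = 0.0590), without AT3_2 (0.0640), without AT3_3 (0.0905) and on the log2(TPM + 1) scale (0.101), with log2 fold changes of 0.38 to 0.53 throughout. Nfkb1 measured 7.45, 7.27 and 7.67 CPM in AT3, all above the CPT libraries, with a log2 fold change of 0.46 (95% interval 0.17 to 0.75) that did not pass (edgeR adjusted p = 0.0647). Ikbkb measured 19.4, 19.6 and 19.7 CPM in AT3, and its log2 fold change of 0.26 (95% interval -0.03 to 0.56) did not pass either (edgeR adjusted p = 0.304).

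Il17ra measured 13.4, 13.8 and 17.05 CPM in AT3, the highest of them just under the lowest CPT library at 17.15 CPM. Its log2 fold change was -0.46 (95% interval -0.79 to -0.13, edgeR adjusted p = 0.106). Without CPT_3 it was -0.56 and passed (adjusted p = 0.0347), and with no filter on low counts the adjusted p was 0.00852. Il17rc measured 15.45, 11.9 and 15.1 CPM and Il17rb 8.83, 8.18 and 7.09 CPM in AT3, both overlapping CPT. Their log2 fold changes were -0.23 (95% interval -0.51 to 0.05) and 0.10 (-0.23 to 0.43). The log2 ratio of Il17rc to Il17ra was 1.67 ± 0.25 (SD, n = 3) in AT3 against 1.39 ± 0.40 in CPT, with overlap (two-sided exact permutation p = 0.4).

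For the adaptor and the ligase named in the study's title, AT3 and CPT libraries overlapped. Traf3ip2 measured 2.20, 2.26 and 1.72 CPM in AT3, with a log2 fold change of -0.02 and a 95% interval of -0.59 to 0.56 (edgeR adjusted p = 0.983). That interval is the widest among the members, so a moderate change of the ACT1 transcript in either direction was not detectable at this depth. Traf6 measured 4.43, 5.74 and 5.77 CPM, with a log2 fold change of 0.17 (95% interval -0.20 to 0.55, adjusted p = 0.639). Rela measured 17.5, 16.1 and 17.6 CPM and differed by -0.15 (95% interval -0.36 to 0.06, adjusted p = 0.432), and Map3k7 measured 12.7, 13.8 and 11.4 CPM and differed by 0.11 (95% interval -0.11 to 0.34, adjusted p = 0.601).

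Beside the 10 members, 0 of the 70 tested pathway genes rose and 3 fell in AT3 against CPT, with a median log2 fold change of -0.08. The counts of this paragraph stand against 4.68% of all tested genes called (2.46% higher and 2.22% lower). The 3 were Bcl3, an atypical IkB protein gene (31.9 to 15.7 CPM on average, log2 -1.02 ± 0.15 (SE), edgeR adjusted p = 0.00199), Nfkbia (22.4 to 17 CPM, log2 -0.40, adjusted p = 0.0331) and Arid5a, whose product stabilises IL-17 induced mRNAs (4.42 to 2.24 CPM, log2 -0.98, adjusted p = 0.0298). Bcl3 passed under every alternative run, while the calls of Nfkbia and Arid5a were each lost without CPT_2, without any 1 of the AT3 libraries and on the TPM scale. Of the 7 tested IL-17 target genes 4 fell and 3 were not called, with a median log2 fold change of -0.85. Cxcl1 was at -1.49, S100a8 at -1.58 and Steap4 at -0.66, and Lcn2 at -0.14 did not pass, its AT3 mean of 3410 CPM being 9.47 (log2) above CON. Cxcl1 and S100a8 lost the call on the TPM scale (limma adjusted p = 0.0639 and 0.0654), and Steap4 there, without CPT_2 and without AT3_1. Neutrophil markers were lower in AT3 libraries (12.1 to 13.5 CPM summed) than in CPT (24.1 to 50.2 CPM), and their part in these falls was not tested. That sum shares S100a8 and S100a9 with the falls, at 8.71 and 15.2 CPM on average in CPT and 2.92 and 5.06 CPM in AT3. Of the other tested neutrophil markers Csf3r fell (log2 -1.23, edgeR adjusted p = 0.0348), and Retnlg and Cxcr2 were not called. Of the 55 tested genes of the deposited pathway map, which holds the 10 members, 1 rose (Tab2) and 4 fell.

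**Figure D4:**
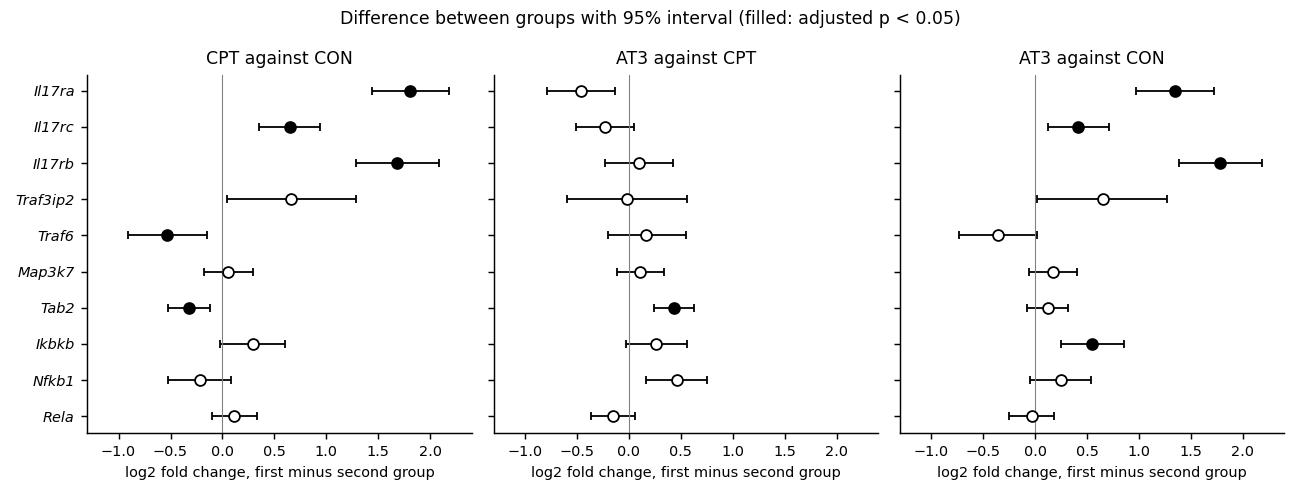
Log2 fold change (horizontal axis, first minus second group) of the 10 genes with its 95% interval in each comparison. Filled points passed edgeR adjusted p under 0.05. Il17ra and Il17rb are the filled points farthest right in both comparisons with CON, and Tab2 is the filled point in AT3 against CPT.

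The third comparison, AT3 with CON, shares AT3 libraries with the second and CON libraries with the first, so its values are no separate support for either. The 3 receptor genes and Ikbkb were called higher and 0 members lower. The background was 64.4% of tested genes called (31.5% higher and 32.9% lower). Libraries did not overlap for 6 of 10 members, against 70.3% of all genes. Il17rb was 3.44-fold higher (log2 1.78 ± 0.18 (SE), edgeR adjusted p = 5.72e-07), Il17ra 2.54-fold (log2 1.35 ± 0.18, adjusted p = 7.06e-06), Ikbkb 1.47-fold (log2 0.55 ± 0.14, adjusted p = 0.00338) and Il17rc 1.33-fold (log2 0.41 ± 0.14, adjusted p = 0.0155). The Il17rc call was lost without CON_3 (adjusted p = 0.0519), without AT3_1 (0.0597) and without AT3_3 (0.0509).

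Of the members not called there, Traf3ip2 was at 0.65 (95% interval 0.02 to 1.27, edgeR adjusted p = 0.0643), Nfkb1 at 0.25 (-0.05 to 0.54), Map3k7 at 0.17 (-0.06 to 0.40), Tab2 at 0.12 (-0.08 to 0.32), Rela at -0.03 (-0.25 to 0.18) and Traf6 at -0.36 (-0.73 to 0.02). On the log2(TPM + 1) scale 8 members were called higher, Tab2, Map3k7, Nfkb1 and Rela in addition. Of all 13686 tested genes, 7017 were called higher on that scale and 1698 lower. Nfkbia was lower in AT3 than in CON by 0.78 (log2, edgeR adjusted p = 5.65e-06), but on the log2(TPM + 1) scale its value was -0.07 (limma adjusted p = 0.711). The log2 ratio of Il17rc to Il17ra was lower in AT3 than in CON by a difference of -1.05 with no overlap (two-sided exact permutation p = 0.1, the smallest possible).

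The members sit in genes of unlike size. Rela, Il17rc and Il17rb span 10.6, 11.7 and 12.8 kb, below the median of tested genes by genomic span, while Tab2, Map3k7 and Nfkb1 span 50.6, 59.4 and 107 kb, in the longest quartile. In that quartile the median log2 fold change in CPT against CON was -0.29, beside 0.03 to 0.10 in the other quartiles. The members of the longest quartile were at -0.32, 0.05 and -0.22 for Tab2, Map3k7 and Nfkb1. The part of span in their values was not tested.

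The genes whose pattern over the 9 libraries was most like that of a member were found by the root mean square difference of log2 CPM after centring each gene, among 10212 genes. For Il17ra they were Gdf15, Tiparp and Fabp2 (0.183 to 0.213). Traf3ip2 was nearest to Arf6, Slc35a2 and Gtdc1 (0.158 to 0.170), Traf6 to Fbxw11, Mpp1 and Uevld (0.125 to 0.134), and Nfkb1 to Hipk1, Aff1 and Vps54 (0.118 to 0.120). Rela, which edgeR called in no comparison, had the smallest differences, to Pef1, Mvb12a and Stxbp2 (0.044 to 0.059). The measure is not scaled to how far a gene moves, so its size cannot be compared between members.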

How the data were processed

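The 9 liver libraries were grouped by their labels. The authors deposited estimated counts per gene, of which 7.96% to 9.55% a library were not whole numbers, and TPM, which correct for gene length and sum alike in all libraries. The aligner, the counting tool and its use of strand are each not given in the sources used here, and the submitters' processing notes name GRCm38, mm10 and GRCm39 with no role. Coordinates are those of GENCODE M21 on GRCm38.

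Counts were rounded and tested with edgeR 4.0.16 (R 4.3.3), using its quasi-likelihood test with TMM, filterByExpr, a term per group over all 9 libraries and Benjamini-Hochberg adjustment over 13686 genes at 0.05. The subunit ratio was compared by an exact permutation test. Scripts were tested on simulated data. Alternatives were DESeq2 1.42.0, its size factors in edgeR, no filter, limma 3.58.1 on log2(TPM + 1) and log2(TPM + 0.1), mitochondrial genes left out, a replicate block, 6 libraries only, and each library left out. Limits from counts of 0 cover counting error only.

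The members and lists were chosen with earlier results of these data known. Beside the members, the text names from each list at most 4 genes with the smallest p in CPT against CON and at most 2 called in AT3 against CPT. Cell type markers and genes with low counts are named in addition. The 3 nearest patterns are named for 5 members. The summed level of the T cell and type 17 marker list is not reported here.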

Additional observations from a re-analysis of the deposited data

How the results depend on the processing

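The rises of Il17ra and Il17rb against CON held under all 14 alternatives. In AT3 against CPT, members called went from 1 to 3 with no filter on low counts (Il17ra, Nfkb1 and Tab2) and to 0 on the log2(TPM + 1) and log2(TPM + 0.1) scales, and was 0 to 2 with a library left out (0 without CPT_2, AT3_2 or AT3_3, and 2 without CPT_3). Genes called there went from 641 to 1174 with no filter, 45 and 32 on the 2 TPM scales, and 172 to 1316 with a library left out (without AT3_2 and without CPT_3). In AT3 against CON, members called went from 4 to 8 on both TPM scales, where 7017 and 7037 of all 13686 tested genes were called higher. The causes were not tested.

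Signs turned as follows on log2(TPM + 1) and log2(TPM + 0.1). In CPT against CON, Traf6 was at 0.03 and 0.06, Tab2 at 0.24 and 0.29, Nfkb1 at 0.23 and 0.34, Ikbkg at 0.23 and 0.29, Chuk at 0.17 and 0.18, and Nfkbia at 0.22 and 0.23. In AT3 against CPT, Traf3ip2 was at 0.04 and 0.06. In AT3 against CON, Traf6 was at 0.16 and 0.31, and Rela at 0.55 and 0.65. Rela there was also at 0.02 with DESeq2, 0.06 with no filter, 0.02 without CON_1 and 0.02 without AT3_2. In AT3 against CPT, Traf3ip2 was at 0.11 without CPT_1, 0.09 without CPT_3 and 0.10 without AT3_3, and Il17rb at -0.03 without CPT_1. With a library left out, Traf3ip2 ran from -0.22 to 0.11 there, and Rela from -0.05 to 0.02 in AT3 against CON. The log2 difference of the subunit ratio was -1.50 to -1.09 (CPT against CON), 0.05 to 0.45 (AT3 against CPT, lowest without CPT_2) and -1.20 to -0.82 (AT3 against CON) with a library left out.

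Replicate numbers showed no strong pairing: 0 of 9 same-number pairs correlated over 0.1 (-0.0378 to 0.0762). The same-number pairs of CPT and AT3 were at 0.0518, 0.0762 and 0.0668, and their different-number pairs at -0.0578 to -0.0185. The 6 of 9 libraries that correlated best with their own number were those of CPT and AT3. These values do not settle whether CPT and AT3 libraries were weakly paired. With the replicate block, members called stayed at 5, 1 and 4, and genes called were 8154, 451 and 8648, in CPT against CON, AT3 against CPT and AT3 against CON. Traf3ip2, at 16 to 71.59 counts, is where depth limits most.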
